A study of Macaca nemestrina with 15 samples.

Results

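MHC class I antigen processing genes encode the proteins that cut cytosolic proteins into peptides and load them onto class I molecules. The group was defined by function, with no measured value in the rule, and lists 10 genes: *B2M*, *TAP1*, *TAP2*, *TAPBP*, *PSMB8*, *PSMB9*, *PSMB10*, *ERAP1*, *ERAP2* and *NLRC5*. Of these, 9 were found by symbol among the 28865 features of the count table, and all 9 were among the 12880 features that passed the filter on low counts. *TAP2* was not analysed here. Peripheral blood mononuclear cells (PBMCs) came from 5 female pig-tailed macaques that received islatravir (ISL), a nucleoside reverse transcriptase translocation inhibitor, by oral gavage at 30 mg/kg once a week for 12 weeks. Bulk RNA was sequenced from each animal before treatment, at a time labelled week 12 of dosing and at one labelled week 18, described as 6 weeks after the last dose, so each of the 3 groups held 5 libraries and every animal served as its own control. All animals were treated and no untreated animals are among the samples, so the effect of the drug and the effect of time cannot be told apart. Ages were not given in the labels, and by the dates written in the library names the second sample was taken 56 to 57 days and the third 84 days after the first, sooner than the named weeks. By these dates the third sample followed the second by 27 to 28 days. A figure legend of the study also places the third sample sooner than 6 weeks after dosing ended. The time between the last dose and the third sample is therefore uncertain.

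Class I molecules are carried by nearly all nucleated cells and show peptides from inside the cell to cytotoxic T cells. The proteasome cuts proteins into peptides, and interferon leads cells to replace its catalytic subunits with inducible ones that form the immunoproteasome. The TAP transporter moves peptides into the endoplasmic reticulum, where aminopeptidases trim them, tapasin loads them and beta-2-microglobulin holds the finished complex together, while NLRC5 switches on transcription of many of these genes. Reverse transcriptase inhibitors are aimed at a viral enzyme, and the comparison of PBMCs before, during and after dosing asks whether these host genes changed.

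Total counts ran from 5610597 in the week 12 library of animal Z15303 to 10379572 in the pre-treatment library of Z15228, and Z15303 also had the shallowest week 18 library, with 5886482. Class I processing genes were read deeply, with between 241 and 177513 reads per gene and library. The sum of 8 T cell markers (pre-treatment range 2093 to 3012 CPM, read counts scaled to the size of the library) and of 7 monocyte markers (1916 to 3908 CPM) was high in every library, as in PBMCs. The sum of 4 neutrophil markers was 61.4 to 211 CPM before treatment, 68.1 to 302 CPM at week 12 and 70.7 to 269 CPM at week 18. Platelet markers were also high, and 4 of them summed to 2587 to 5359 CPM before treatment. This sum was 2327 to 6608 CPM at week 12 and 2070 to 7641 CPM at week 18. The median log2 difference of the platelet markers at week 12 ran from −1.22 in Z15228 to 0.95 in Z13076. No marker with a row was at 0 in all libraries. B cell markers had lower values after treatment: their median log2 fold change was −0.87 at week 12 and −1.05 at week 18, all 9 tested markers had negative values, and the summed level was 259 to 1042 CPM before treatment, 157 to 536 CPM at week 12 and 198 to 446 CPM at week 18. The 7 monocyte markers had median log2 fold changes of −0.15 at week 12 and 0.22 at week 18, with positive values for 2 of 7 and 6 of 7, and their sum was 1977 to 3364 CPM at week 12 and 2339 to 5140 CPM at week 18. None of the B cell, monocyte or platelet markers passed the test, and the part of these differences in the values below was not tested. In bulk RNA, fewer cells of a type and less RNA per cell cannot be told apart. In blood of these animals, the study counted fewer B cells during and after dosing. It counted fewer monocytes during dosing, with a return afterwards. The part of these cell counts in the RNA values was not tested.

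None of the 9 class I processing genes passed the test at either time point. In edgeR's quasi-likelihood test with time point as the only term and Benjamini-Hochberg adjustment, 0 of 9 passed an adjusted p of 0.05 at week 12, where 0% of all tested features passed, and 0 of 9 at week 18, where the share was also 0%. At an unadjusted p under 0.05, 0 of 9 passed in both comparisons against 1.61% and 1.69% of all features. With the animal added as a block, which sets each animal against itself, 0 of 9 passed the adjusted threshold (background 0.00776% at each time point). In that fit, 0 of 9 at week 12 and 1 of 9 at week 18 had an unadjusted p under 0.05 (background 4.69% and 5.85%). At the adjusted threshold, DESeq2 with or without the block and limma-voom also gave 0 of 9. DESeq2 with the block called 23 of 20732 features at week 12 and 51 at week 18. DESeq2 without it called 1 of 20694 at week 12 and 0 at week 18, and limma-voom called 0. At week 18, DESeq2 with the block had 1 of 9 under an unadjusted p of 0.05, beside 779 of all features. The median log2 fold change of the 9 genes was −0.035 at week 12 and −0.068 at week 18, beside 0.0037 and 0.00071 over all features. At week 12, 5 of the 9 values were negative and at week 18, 7 of 9, where 49% and 49.8% of all features had a negative value. For all 9 genes the CPM of the groups overlapped in every comparison, while 0.28% of all features did not overlap at week 12 vs. pre-treatment, 0.334% at week 18 vs. pre-treatment and 0.101% at week 18 vs. week 12. Among 48 other genes of the pathway, 0 passed at either time in edgeR's test with or without the block, and 29 of 48 had negative values at each. Both comparisons with pre-treatment share the pre-treatment libraries, so their values are set side by side and are not independent.

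**Figure D1:**
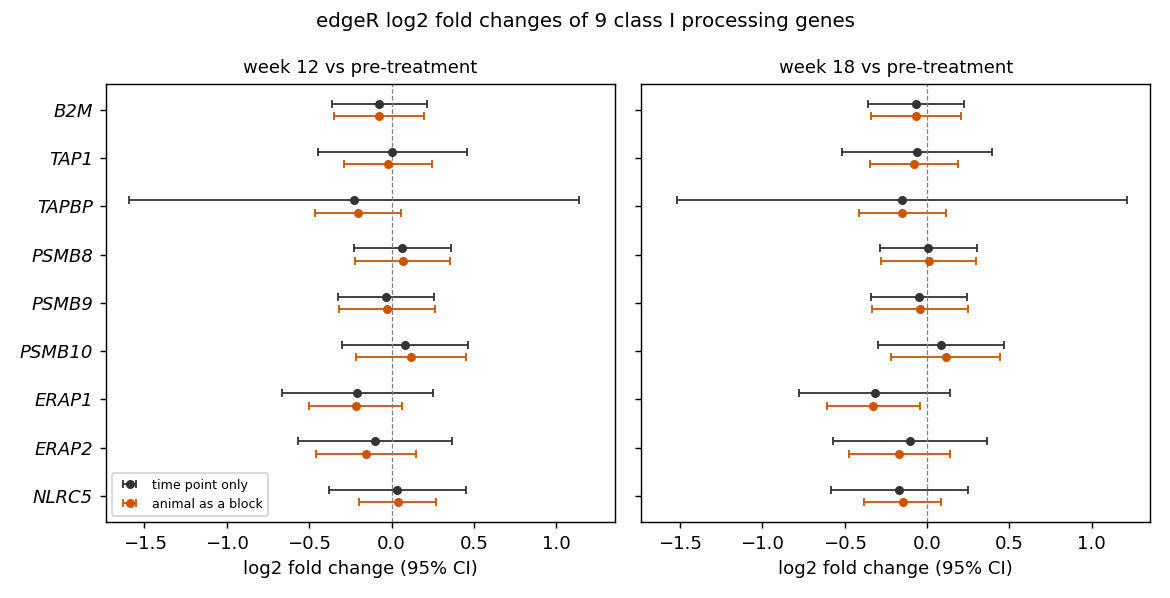
edgeR log2 fold changes (horizontal axis) of the 9 class I processing genes at week 12 and week 18 against pre-treatment, with 95% confidence intervals, from the fit with time point only (black) and with the animal as a block (orange). Of the orange intervals, that of *ERAP1* at week 18 (−0.61 to −0.042) lies below 0, and the black interval of *TAPBP* is the widest of the 9.

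*PSMB8*, *PSMB9* and *PSMB10* encode the inducible catalytic subunits of the immunoproteasome. In all lists of 5 values here, the animals come in the order Z15228, Z13076, Z15339, Z15303 and Z15408. The values of *PSMB10* were 273, 364, 200.3, 276 and 151 CPM before treatment, 266, 262, 243, 256 and 309 at week 12 and 249.7, 312, 241, 253 and 287 at week 18. Animal Z15408 had the lowest value before treatment and the highest at week 12, while Z13076 had the highest before treatment. The log2 fold change was 0.080 (SE 0.18) at week 12, with a 95% interval from −0.30 to 0.46, and 0.087 (SE 0.18) at week 18, from −0.30 to 0.47. *PSMB9* stood at 450.1, 508, 365, 446 and 292 CPM before treatment, 390.1, 346, 389, 414 and 473 at week 12 and 379, 364, 406, 435 and 411 at week 18. Again Z15408 was lowest and Z13076 highest before treatment, and the order of these animals was reversed at week 12. Its log2 fold changes were −0.035 (SE 0.14) and −0.048 (SE 0.14). For *PSMB8* the values were 462, 558, 416, 492 and 321 CPM before treatment, 496, 413, 428, 493 and 522 at week 12 and 421, 406, 423, 492 and 518 at week 18. Z15408 was the lowest library before treatment and the highest at week 12 and week 18, and log2 fold changes were 0.064 (SE 0.14) and 0.0078 (SE 0.14). The adjusted p of all 3 subunits was 1 at both times in edgeR's quasi-likelihood fit.

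Means near 0 combined opposite differences in single animals. Within Z15408, the log2 CPM of *PSMB8*, *PSMB9* and *PSMB10* differed by 0.70, 0.70 and 1.04 at week 12 and by 0.69, 0.49 and 0.93 at week 18 from pre-treatment. Within Z13076, the same subunits differed by −0.44, −0.56 and −0.47 at week 12 and by −0.46, −0.48 and −0.22 at week 18. All 3 subunits were higher than at pre-treatment in Z15408 and lower in Z13076 at both times, and these differences share 1 pre-treatment library per animal. The 3 constitutive catalytic subunits had median differences of 0.58 in Z15408 and −0.29 in Z13076 at week 12. At week 18 these medians were 0.47 and −0.14. For 8 other core subunits of the proteasome they were 0.40 and −0.35 at week 12 and 0.38 and −0.25 at week 18. The directions in these animals were therefore not particular to the inducible subunits. Without Z15408, the week 12 log2 fold changes of *PSMB8* and *PSMB10* turned to −0.074 and −0.12, and without Z13076 that of *PSMB9* turned to 0.10. None of these passed the test.

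**Figure D2:**
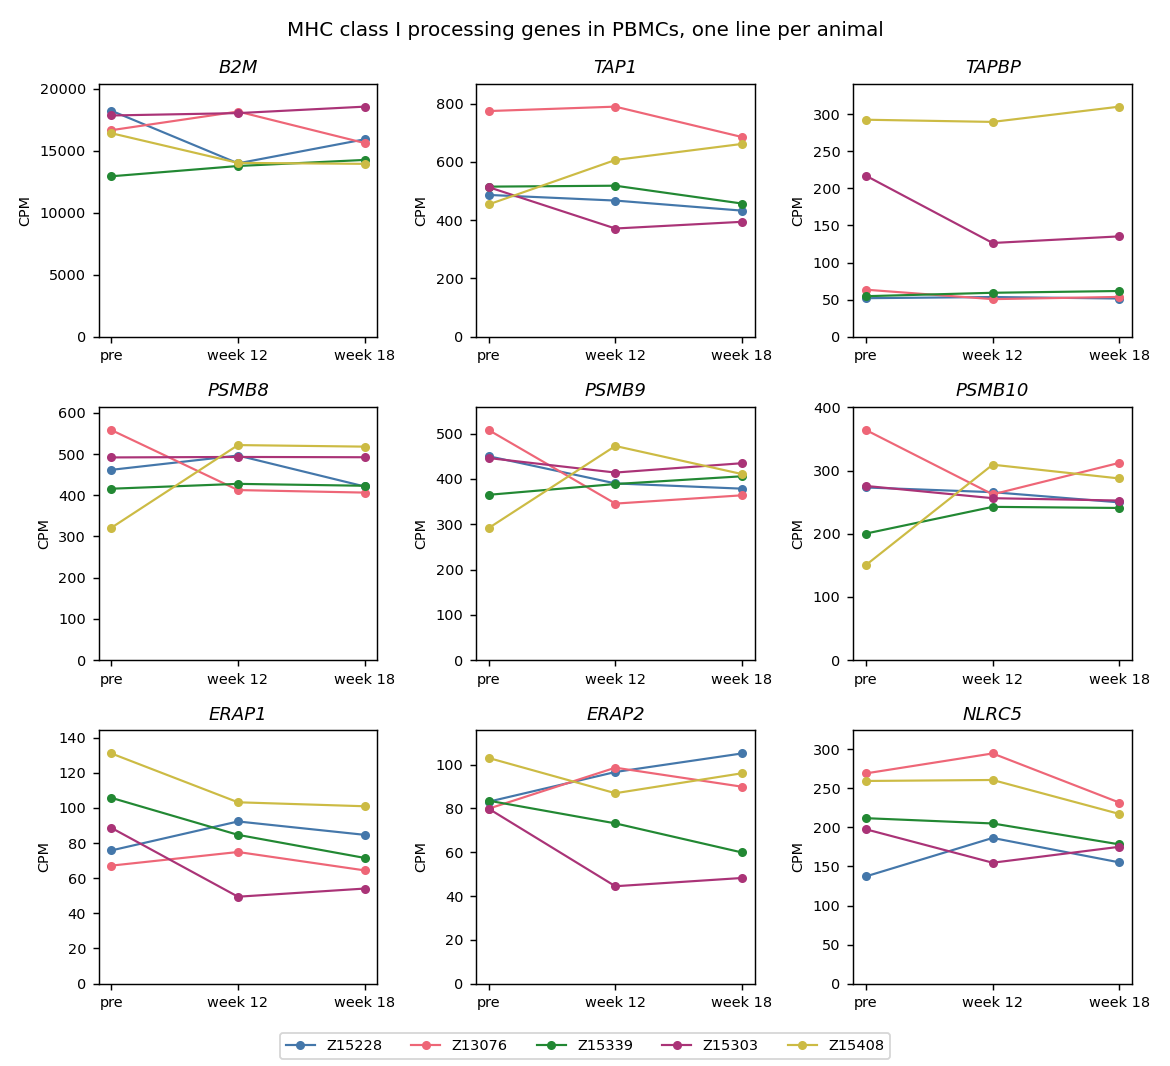
CPM of the 9 class I processing genes (vertical axes from 0) at pre-treatment, week 12 and week 18, with 1 line per animal. The lines of Z15408 and Z13076 cross in the *PSMB8*, *PSMB9* and *PSMB10* panels, and the *TAPBP* panel holds 3 lines below 64 CPM with Z15408 and Z15303 above them.

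Each inducible subunit takes the place of a constitutive one, *PSMB8* that of *PSMB5*, *PSMB9* that of *PSMB6* and *PSMB10* that of *PSMB7*, and the log2 ratio of each pair was compared within a library, where depth cancels. The ratio of *PSMB9* to *PSMB6* was 1.36, 1.42, 1.23, 1.27 and 1.33 before treatment, 1.34, 1.15, 1.07, 1.05 and 1.45 at week 12 and 1.11, 1.08, 1.17, 1.01 and 1.24 at week 18. It was lower at week 18 than before treatment in 5 of 5 animals, by 0.069 to 0.34, and the groups overlapped only between Z15339 before treatment and Z15408 at week 18. Mean ratios were 1.32 ± 0.071 before treatment and 1.12 ± 0.085 at week 18 (SD, n = 5). The difference of −0.20 had a two-sided p of 0.0159 in an exact permutation test over samples, which became 0.0952 after adjustment over the 6 ratio comparisons. An exact sign-flip test within animals gave 0.0625, the smallest p that 5 animals allow, and 0.375 adjusted, so the difference did not pass correction.

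The parts of this ratio were a log2 fold change of −0.048 (SE 0.14) for *PSMB9* and of 0.16 (SE 0.13) for *PSMB6* at week 18, neither of which passed. At week 12 the ratio differed by −0.11 (exact permutation test, two-sided p = 0.230) and was lower in 4 of 5 animals. The ratio of *PSMB8* to *PSMB5* differed by 0.059 (exact permutation test, two-sided p = 0.635) at week 12 and by −0.16 (exact permutation test, two-sided p = 0.183) at week 18. *PSMB10* to *PSMB7* differed by 0.12 (exact permutation test, two-sided p = 0.508) and by 0.036 (exact permutation test, two-sided p = 0.841). All 3 constitutive subunits had positive week 18 log2 fold changes, with a median of 0.16, and none passed. Among the other 20S core subunits, 0 of 8 passed and the medians were −0.013 and 0.013, and among 9 genes of proteasome activators and assembly factors, 0 passed and the medians were 0.011 and 0.0081. The smallest unadjusted p of the core list was that of *PSMA7*, an alpha ring subunit, with a week 12 log2 fold change of 0.19 (SE 0.15), and of the assembly list that of *PSMG1*, an assembly chaperone, with 0.094 (SE 0.12).

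**Figure D3:**
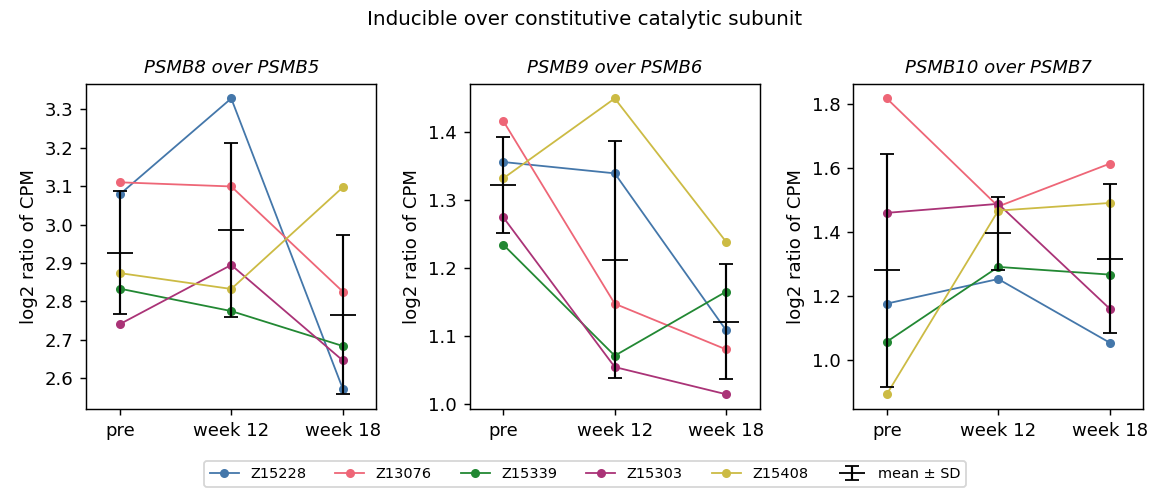
Log2 ratio of the CPM of each inducible to its constitutive catalytic subunit (vertical axes, which do not start at 0) in each library, with 1 line per animal and black bars for mean ± SD. All 5 lines for *PSMB9* over *PSMB6* end lower at week 18 than before treatment, and those of *PSMB10* over *PSMB7* draw closer together at week 12.

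*TAP1* encodes one chain of the transporter that carries peptides into the endoplasmic reticulum. Its values were 487, 775, 515, 514 and 454 CPM before treatment, 468, 790.0, 519, 372 and 607 at week 12 and 433, 686, 457, 395 and 662 at week 18. Before treatment Z13076 stood above the other animals, and at week 18 both Z13076 and Z15408 did. The log2 fold changes were 0.0052 (SE 0.21) at week 12, with a 95% interval from −0.45 to 0.46, and −0.060 (SE 0.21) at week 18. Within animals, the week 12 difference in log2 CPM was −0.47 in Z15303 and 0.42 in Z15408, and lay between −0.058 and 0.028 in the other 3.

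*TAPBP* encodes tapasin, the chaperone that bridges the transporter and the class I molecule. It set the animals apart more than any other gene of the group, at 52.0, 63.4, 54.7, 217 and 293 CPM before treatment, 53.6, 50.7, 59.3, 126 and 289.6 at week 12 and 51.5, 53.7, 61.7, 135 and 310.2 at week 18. Animals Z15303 and Z15408 were above the other 3 at every time point, with no overlap, and the lowest of their 6 values, 126 CPM, was well over the highest of the other 9, 63.4 CPM. On the log2 CPM scale the SD between animals was 1.12, greater than in 97.4% of all tested features, and the SD within animals was 0.21. The ratio of these SDs, 5.41, exceeded that of 99.7% of features. The log2 fold change was −0.23 (SE 0.65) at week 12 and −0.15 (SE 0.65) at week 18. With the animal as a block, the week 12 value was −0.20 (SE 0.12), with a 95% interval from −0.47 to 0.059. Without Z15303 the week 12 value of the fit with time point only was −0.012, and without Z15408 it was −0.42. Within Z15303 the difference was −0.78 and −0.68 at the later times, and without this animal the week 18 log2 fold change turned to 0.059.

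Of 7 other peptide loading and endoplasmic reticulum chaperone genes, 0 passed at either time, and the medians were −0.013 and −0.026. *BCAP31*, which encodes an export receptor for class I molecules, had log2 fold changes of 0.16 (SE 0.14) at week 12 and 0.16 (SE 0.14) at week 18, and *UGGT1*, which encodes the glucosyltransferase that checks the folding of glycoproteins, −0.26 (SE 0.23) and −0.32 (SE 0.23). The heavy chain gene analysed was *HLA-F*, a nonclassical class I gene, with 329, 463, 289, 178 and 262 CPM before treatment, 302, 392, 339, 141 and 439 at week 12 and 243, 373, 295, 139.8 and 436 at week 18. Z15303 was the lowest animal at all 3 times, and *HLA-F* had log2 fold changes of 0.085 (SE 0.32) and −0.033 (SE 0.32). Class I genes of macaques are duplicated and alike in sequence, so reads of *HLA-F* could be shared with related copies.

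*ERAP1* and *ERAP2* encode the aminopeptidases that trim peptides in the endoplasmic reticulum. *ERAP1* read 75.8, 67.2, 106, 88.7 and 131 CPM before treatment, 92.3, 74.9, 84.7, 49.4 and 103 at week 12 and 84.7, 64.4, 71.5, 54.1 and 101 at week 18. Z15408 was highest at each time, and Z15303 was the lowest at week 12 and week 18. The week 18 log2 fold change was −0.32 (SE 0.22), the largest of the 9 genes in size, with an edgeR p of 0.163 and an adjusted p of 1. The blocked fit gave −0.32 (SE 0.13), for which edgeR's p was 0.0265 and 0.824 once adjusted. It was the 1 gene of 9 under an unadjusted p of 0.05 there, beside 5.85% of all features. *ERAP1* was lower than before treatment in 4 of 5 animals at week 18, by 0.059 in Z13076 to 0.71 in Z15303 on the log2 scale, and higher by 0.16 in Z15228. Of all features, 19% were lower in at least 4 animals.

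*ERAP2* had 83.1, 79.9, 83.6, 79.9 and 103 CPM before treatment, 96.7, 98.6, 73.2, 44.5 and 87.0 at week 12 and 105, 89.9, 59.9, 48.2 and 96.1 at week 18. Before treatment 4 animals lay within 79.9 to 83.6 CPM with Z15408 above them, and at later times the animals spread apart, with Z15303 lowest. Log2 fold changes were −0.10 (SE 0.22) and −0.10 (SE 0.22), and without Z15303 they turned to 0.034 and 0.014. Within Z15303, *ERAP1* and *ERAP2* both differed by −0.84 at week 12. A change in this animal under −0.5 was seen in 15.3% of all features. Of 7 other peptidases of the pathway, 0 passed, with medians of −0.025 and −0.099. *LAP3*, which encodes a cytosolic leucine aminopeptidase, had log2 fold changes of −0.17 (SE 0.14) and −0.19 (SE 0.14), and *BLMH*, which encodes bleomycin hydrolase, 0.066 (SE 0.11) and 0.024 (SE 0.11).

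*B2M* encodes beta-2-microglobulin, the light chain shared by all class I molecules. The values were 18233, 16662, 12944, 17848 and 16418 CPM before treatment, 13987, 18166, 13773, 18039 and 14025 at week 12 and 15927, 15625, 14264, 18561 and 13946 at week 18. Values within a time point overlapped between the groups, and no animal stood apart. The log2 fold change was −0.074 (SE 0.14) at week 12, with a 95% interval from −0.36 to 0.22, and −0.068 (SE 0.14) at week 18, from −0.36 to 0.22. *B2M* varied the least of the 9 genes within animals, with an SD of 0.13 in log2 CPM beside a median of 0.25 over all features.

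*NLRC5* encodes the transactivator that drives transcription of class I genes. The gene had 137, 269, 212, 198 and 259.6 CPM before treatment, 187, 295, 205, 155 and 261 at week 12 and 155, 232, 178, 175 and 217 at week 18. Z15228 was lowest before treatment and at week 18, Z15303 was lowest at week 12, and Z13076 was highest at each time. Log2 fold changes were 0.036 (SE 0.20) at week 12, with a 95% interval from −0.38 to 0.45, and −0.17 (SE 0.20) at week 18, from −0.58 to 0.25. At week 18 the level was lower than before treatment in 4 of 5 animals, by 0.17 to 0.26 on the log2 scale, and higher by 0.18 in Z15228. A fall in at least 4 animals was seen in 19% of all features.

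Of 13 transcription factors of class I and class II genes, 0 passed at either time, with medians of −0.10 and −0.049. *RFX5* and *CIITA*, which encode regulators of MHC promoters, had week 12 log2 fold changes of −0.20 (SE 0.16) and −0.27 (SE 0.22). *IRF1*, a factor induced by interferon gamma that acts on class I promoters, had 409, 794, 450.4, 464 and 414 CPM before treatment, 455, 579, 480.2, 336 and 556 at week 12 and 459, 421, 388, 381 and 587 at week 18, with log2 fold changes of −0.072 (SE 0.20) and −0.18 (SE 0.20). Z13076 was highest before treatment, and without it the *IRF1* values turned to 0.073 and 0.064.

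Animal Z15303 had lower values after treatment in the transporter, loading, trimming and regulator genes. At week 12 its log2 CPM differed from pre-treatment by −0.47 for *TAP1*, −0.78 for *TAPBP*, −0.84 for *ERAP1*, −0.84 for *ERAP2* and −0.35 for *NLRC5*. In the same animal the differences were −0.11 for *PSMB9*, −0.10 for *PSMB10* and 0.015 for *B2M*. Over the 9 genes, the median difference of Z15303 at week 12 was −0.35, and the other animals had medians from 0.0069 to 0.044. At week 18 it was −0.17 in Z15303, beside −0.13, −0.22, 0.025 and 0.084 in Z15228, Z13076, Z15339 and Z15408. Other lists in Z15303 had week 12 medians of −0.35 (loading and chaperones), −0.35 (transcription factors) and −0.28 (other peptidases). Those of the constitutive, other core, and activator and assembly genes of the proteasome in Z15303 were −0.13, 0.087 and 0.26. This animal also had the highest pre-treatment level of 21 type I interferon-stimulated genes, whose mean log2 CPM was 6.20 before treatment, 4.45 at week 12 and 4.56 at week 18, beside 4.40 to 5.25 before treatment in the others. Its median change in those genes at week 12 was −1.64, and its later libraries were the shallowest of their groups. Of 9 interferon gamma receptor and target genes, 0 passed, and the medians were −0.17 at week 12 and −0.18 at week 18. The part of these values in the class I changes of Z15303 was not tested. None of the 21 type I genes passed the test. At week 12, 20 of the 21 had negative log2 fold changes, with a median of −0.37, where 49% of all features were negative. At week 18 it was 21 of 21, with a median of −0.49, beside 49.8%. The median change over these genes was negative in 3 of 5 animals at each time. At week 18, 3 of 21 had an unadjusted p under 0.05 in edgeR's test, and 4 with the block, beside 1.69% and 5.85% of all features.

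**Figure D4:**
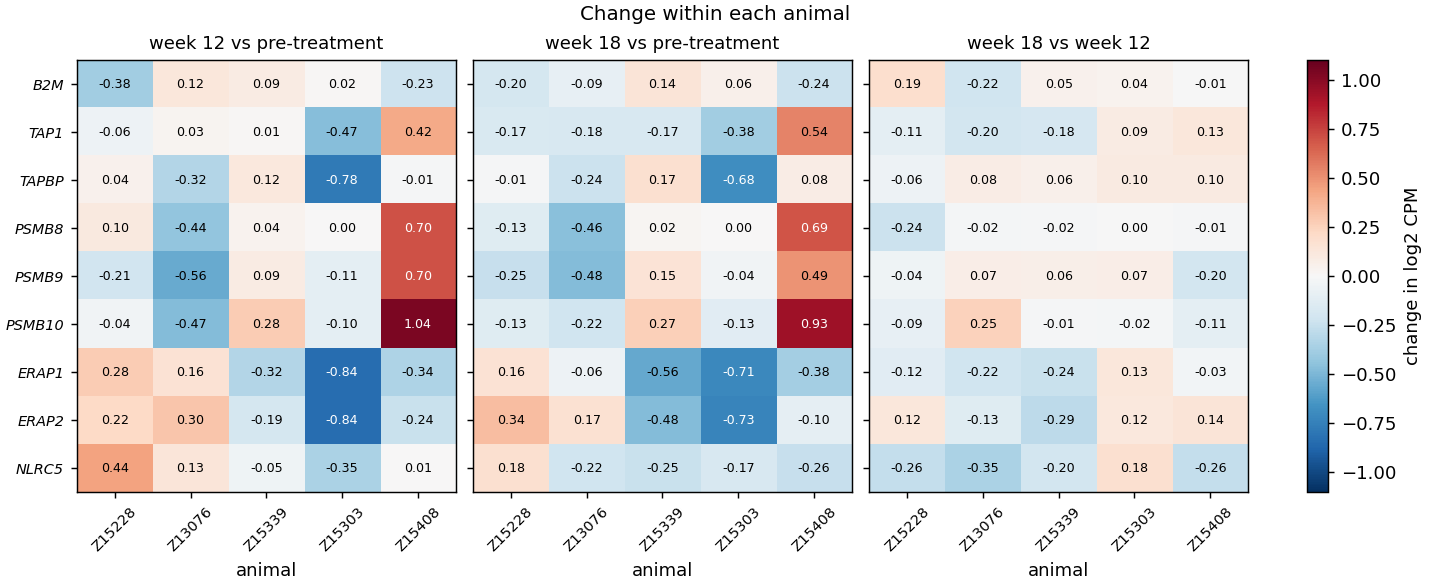
Change in log2 CPM of each class I processing gene (rows) within each animal (columns) for the 3 comparisons, with blue for lower and red for higher values at the later time. The darkest blue cells are *ERAP1*, *ERAP2* and *TAPBP* in Z15303, and the darkest red are *PSMB10*, *PSMB8* and *PSMB9* at week 12 and *PSMB10* and *PSMB8* at week 18, all in Z15408 and against pre-treatment.

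Between the samples labelled week 12 and week 18, the values within animals lay closer together. These within-animal differences leave out the pre-treatment libraries, but edgeR's fits take their spread from all 15 libraries. In edgeR's test 0 of 9 passed, with 0% of all features called, and 0 of 9 had an unadjusted p under 0.05, beside 0.505%. With the animal as a block the counts were also 0 of 9, beside 0% and 2.17%. All 7 monocyte markers had positive log2 fold changes in this comparison, with a median of 0.39, and none passed, but 3 of 7 had an unadjusted p under 0.05 with the block in edgeR's test. Their part in the class I values was not tested. The median SD of the within-animal change was 0.15 for the 9 genes and 0.28 for all features, where it had been 0.41 and 0.38 for week 12 vs. pre-treatment. For 8 of 9 genes the spread was smaller than in both comparisons with pre-treatment, which held for 53.1% of all features. *PSMB8* had an SD of 0.10 here and 0.41 at week 12 vs. pre-treatment, and *PSMB10* 0.14 and 0.57. *PSMB8* was lower at week 18 in 5 of 5 animals, as were 2.87% of all features, but in 4 of them by at most 0.021. The log2 fold change of *NLRC5* was −0.20 (SE 0.20), and the blocked fit gave −0.19 (SE 0.11, edgeR adjusted p = 1). *NLRC5* was lower in 4 of 5 animals and higher in Z15303, where 17.4% of all features were lower in at least 4, and the other 8 genes had log2 fold changes between −0.11 and 0.080.

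The genes differed in whether their spread lay between animals or within them. The SD between animals exceeded the SD within animals for *TAPBP*, for *NLRC5* (0.31 and 0.16), *TAP1* (0.32 and 0.20), *ERAP1* (0.32 and 0.24), *ERAP2* (0.33 and 0.27) and *B2M* (0.16 and 0.13). The inducible proteasome subunits went the other way, with 0.081 and 0.24 for *PSMB8*, 0.068 and 0.25 for *PSMB9*, and 0.17 and 0.31 for *PSMB10*. Over all features the medians were 0.24 and 0.25. These SDs are descriptions from 5 animals with 3 libraries each, after the mean of each time point was subtracted. The SD between animals is that of the animal means, and the SD within animals that of single libraries. Equal SDs therefore do not mark the absence of an animal effect.

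**Figure D5:**
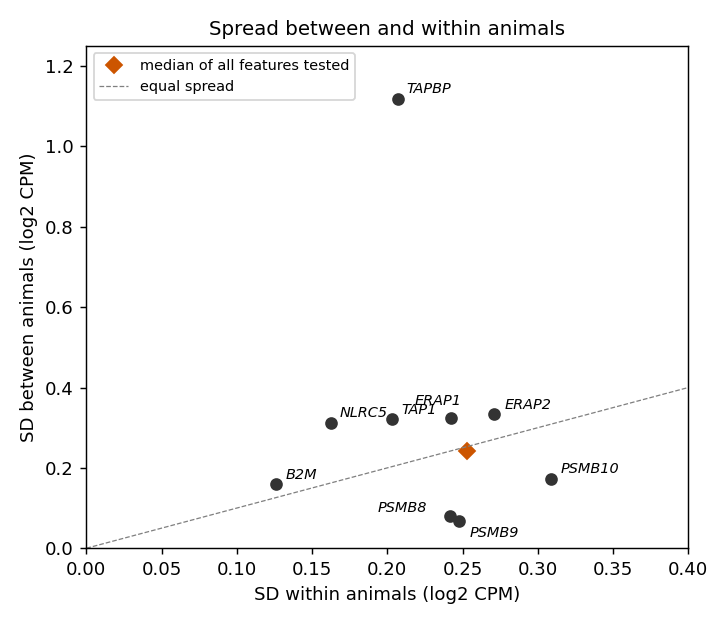
SD between animals (of animal means, vertical axis) against SD within animals (of single libraries, horizontal axis) of log2 CPM for each class I processing gene. The median of all tested features is in orange, and a dashed line marks where both are equal. *TAPBP* lies far above the line, and *PSMB8*, *PSMB9* and *PSMB10* lie below it.

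The genes fell into subsets by their correlation. Across the 15 libraries, which come from 5 animals and share depth and cell mixture within a library, Pearson's r of log2 CPM was 0.90 for *PSMB8* and *PSMB9*, 0.80 for *PSMB8* and *PSMB10* and 0.78 for *PSMB9* and *PSMB10*. It was 0.76 for *TAP1* and *NLRC5* and 0.74 for the aminopeptidases. These were the 5 of 36 pairs with r of at least 0.7, a level reached by 2.59% of pairs among 9386 features with a mean log2 CPM of at least 3. Of the 36 pairs, 15 had a negative r, down to −0.54 for *B2M* and *ERAP1*. With the mean of the other 8 genes, *TAP1* had an r of 0.60 and *B2M* of −0.20. By the rule that ranked features on their correlation with the mean level of the group, the 10 most alike among 9377 candidates held 2 features without a symbol and 8 named genes. These were *COQ2* (r = 0.90), a coenzyme Q synthesis gene, *IRF1* (0.83), *HIF1AN* (0.82), an asparagine hydroxylase gene, and *PARP10* (0.81). *ADA*, which encodes adenosine deaminase, followed with 0.81, then *PRMT6*, an arginine methyltransferase gene, and *MX2*, an interferon-induced gene, with 0.80 and 0.79, and *CPTP*, a ceramide-1-phosphate transfer gene, with 0.79. These correlations describe 15 libraries and carry no test.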

How the data were processed

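RNA-seq of PBMCs gave 15 libraries, 3 from each of 5 animals. Per the processing notes of the submitters, the authors aligned reads with STAR 2.7.9a, and by the methods of the study this was to the *Macaca nemestrina* genome with an Ensembl annotation and STAR's own gene counting. The deposited table holds raw read counts per gene and library, with no normalization. Which strand setting gave the counts is not given in the sources used here, and reads of overlapping or duplicated genes could be shared. In R 4.3.3, features were filtered with filterByExpr (minimum count 10), scaled by TMM and tested with edgeR 4.0.16 (quasi-likelihood, all 15 libraries, time point as the only term), with Benjamini-Hochberg adjustment over all 12880 features. Standard errors were taken from the log2 fold change and the F statistic. CPM use TMM library sizes, and log2 CPM have a prior count of 2. Library totals ran from 5610597 to 10379572.

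The same replicate number marked the same animal in the subject labels, and same-animal libraries deviated together from their group means (mean r = 0.55 over 15 pairs, lowest 0.35, against −0.14 over 60 other pairs), so the animal block pairs the samples. Alternatives were the animal block, DESeq2 1.42.0 with and without it, limma-voom (limma 3.58.1), DESeq2 size factors, library totals, no filter, a minimum count of 30 and leaving out each animal. Ratios were compared with two-sided exact permutation and sign-flip tests, and the smallest p these allow are 0.00794 and 0.0625. Scripts were tested on simulated data. The members, lists and tests were chosen with earlier results of these data known. Genes named are the 9 members, *PSMB5*, *PSMB6*, *PSMB7*, *IRF1*, *CIITA*, up to 2 genes of each pathway list with the smallest unadjusted p at week 12, and the 10 features most alike the members, except those with no symbol. The table writes hyphens in symbols as points, and features with no row of a listed symbol were not analysed here. A gene of the regulator list is not reported here.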

Additional observations from a re-analysis of the deposited data

Results flagged for a closer look

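Of 54 sets of 5 values of the class I processing genes, 8 had 1 animal set apart from the other 4 by Dixon's criterion, which chance flags in about 1 in 20 groups, and the sets share libraries. *TAP1* before treatment was 775 CPM in Z13076 and 454 to 515 CPM in the others. At week 18 vs. pre-treatment, *TAP1* differed by 0.54 in log2 CPM in Z15408 and by −0.38 to −0.17 in the others. *ERAP2* before treatment was 103 CPM in Z15408 and 79.9 to 83.6 CPM in the others. *NLRC5* at week 18 vs. pre-treatment differed by 0.18 in Z15228 and by −0.26 to −0.17 in the other 4 animals.

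For week 18 vs. week 12, 4 genes had an animal apart. *NLRC5* differed by 0.18 in Z15303 and by −0.35 to −0.20 in the others. *PSMB8* differed by −0.24 in Z15228 and by −0.021 to −0.0020 in the others, *PSMB10* by 0.25 in Z13076 and by −0.11 to −0.010 in the others, and *TAPBP* by −0.056 in Z15228 and by 0.057 to 0.099 in the others.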

How the results depend on the processing

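No class I processing gene passed an adjusted p of 0.05 under any of 18 alternatives in any comparison. Of 486 values of these genes under alternatives, 428 kept their direction and 58 turned. Over all features, edgeR called 0 in each comparison. The replicate block (animal), which pairs the samples, called 1 at week 12 and 1 at week 18, DESeq2 1 at week 12, and DESeq2 with the block 23 at week 12, 51 at week 18 and 8 at week 18 vs. week 12. Leaving out 1 animal gave 0 to 6 calls at week 12 and 0 to 17 at week 18, the highest with the block and without Z13076. With the block, leaving out Z15408 gave 0 calls at week 12 and 3 at week 18, and leaving out any of the other 3 animals gave 0 at both. The cause of these differences was not tested.

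The week 12 log2 fold change of *TAP1* was −0.023 with the replicate block, −0.018 in DESeq2 with the block and −0.018 in limma-voom. With library totals *PSMB8* at week 18 was −0.00018, and for week 18 vs. week 12 *B2M* was −0.0013 and *PSMB10* −0.0015. *PSMB10* there was −0.0035 with the block and −0.0053 in DESeq2 with the block. With all animals in, the block turned no other direction and changed no call of these genes.

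Leaving out each animal in turn, with and without the block, gave these ranges of log2 fold change at week 12: *B2M* −0.13 to 0.0098, *TAP1* −0.12 to 0.10, *PSMB8* −0.074 to 0.20, *PSMB9* −0.20 to 0.11, *PSMB10* −0.12 to 0.27, *ERAP2* −0.27 to 0.034 and *NLRC5* −0.051 to 0.14. Those of *TAPBP*, −0.42 to −0.012, and *ERAP1*, −0.33 to −0.055, stayed negative, with the smallest sizes without Z15303. Beside the members they were *HLA-F* −0.12 to 0.21, *PSMB5* −0.16 to 0.14, *PSMB6* −0.028 to 0.18, *PSMB7* −0.085 to 0.071 and *IRF1* −0.19 to 0.073. At week 18 they were *TAP1* −0.23 to 0.011, *TAPBP* −0.36 to 0.059, *PSMB8* −0.14 to 0.14, *PSMB9* −0.16 to 0.077, *PSMB10* −0.077 to 0.21 and *ERAP2* −0.28 to 0.014, and *HLA-F* −0.27 to 0.074 and *IRF1* −0.36 to 0.064. Those of *B2M*, −0.12 to −0.023, *ERAP1*, −0.43 to −0.21, and *NLRC5*, −0.22 to −0.12, stayed negative at week 18. The week 18 ranges of *PSMB5*, *PSMB6* and *PSMB7* stayed positive. For week 18 vs. week 12 the ranges were *B2M* −0.035 to 0.068, *PSMB9* −0.038 to 0.041, *PSMB10* −0.059 to 0.039 and *ERAP2* −0.051 to 0.056. In that comparison *TAP1*, *PSMB8*, *ERAP1* and *NLRC5* stayed negative and *TAPBP* stayed positive. The log2 ratio of *PSMB10* to *PSMB7* at week 18 had differences of −0.10 to 0.12, and that of *PSMB9* to *PSMB6* of −0.23 to −0.17.

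With 5 animals the blocked standard errors of the 9 genes at week 12 ran from 0.11 for *NLRC5* to 0.16 for *PSMB10*, and no limit of detection was computed.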
